A study of Mus musculus with 40 samples.

Results

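The genes described here encode the enzymes of glycolysis, the transporters and kinases that feed and steer it, and the oxygen-sensing pathway that controls many of them. They are 38 named mouse genes, found by NCBI gene ID among 17974 genes listed at either stage in the authors' deposited tables of embryonic forebrain expression. All 38 were listed at both stages. An adjusted p was given for 37 of them at E14.5 and for all 38 at E18.5. The exception was Adm, the vasodilator peptide adrenomedullin, whose mean normalized count of 24.5 at E14.5 lay below the lowest tested level of 25.2.

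Forebrain polyA RNA of male mice was sequenced at embryonic stages E14.5 and E18.5, in 5 wild-type (WT) and 5 Chd8 KI libraries per stage. The series title speaks of a duplication of Chd8, and KI is the label of the mice that carry it; strain, construct, promoter and the number of lines or litters are not given in the sources used here. CHD8 is a chromatin remodeler, and mutations that inactivate its gene are a known cause of autism. Each table holds 1 mean normalized count per gene over the libraries of a stage and no value for a single library, so the response to KI is given as the authors' log2 fold change with its standard error (SE). The header does not name the numerator. Positive values are read as higher in KI because Chd8 itself was positive. Where values are given as a pair, the first is that of E14.5 and the second that of E18.5.

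Glycolysis splits glucose into pyruvate in the cytosol. Lactate dehydrogenase turns pyruvate into lactate, while pyruvate dehydrogenase sends it into mitochondrial oxidation. When oxygen is low, prolyl hydroxylases of the Egln family no longer mark the transcription factor HIF for destruction, and HIF raises most glycolytic genes together with genes for vessel growth and for removal of mitochondria.

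In the authors' deposited tables Chd8 stood at log2 fold changes of 0.64 (SE 0.031) and 0.51 (SE 0.038). Emx1, a marker of dorsal forebrain, had mean normalized counts of 1281 and 520 there. Of 12 markers of hindbrain, midbrain and spinal cord 1 was abundant enough to be tested, Gbx2, which is also used in the thalamus. Gbx2 had log2 fold changes of 0.38 (SE 0.158, adjusted p = 0.273) and 0.70 (SE 0.224, adjusted p = 0.347) in the authors' deposited tables. It was not called, but it was higher at an unadjusted p under 0.05 at both stages, and its part in the results below was not tested. The median log2 fold change over all tested genes was −0.0005 and −0.0018. At an adjusted p under 0.05, the rule by which a gene is called here, 1.21% of genes were called at E14.5 (0.738% higher, 0.470% lower). At E18.5 the share was 0.0662% (0.0441% higher, 0.0221% lower).

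Of the 17 glycolytic enzyme genes 4 rose in KI at E14.5 and 2 at E18.5, by 10.3% to 17.1%. These 17 join the upper and lower glycolysis groups with Ldha and Ldhb of the lactate group, a set outside the planned role groups. At E14.5 4 of 37 members rose (Pfkl, Tpi1, Pkm and Ldha) and 0 fell, beside 0.738% of all genes that rose, or 0.871% of genes with a mean normalized count of 1000 or more. At E18.5 2 of 38 rose (Pfkl and Pkm) and 0 fell, beside 0.0441% of all genes, or 0.0990% at that higher level. All 4 are enzymes of the path from glucose to lactate. The members that are not glycolytic enzymes, 20 tested at the earlier stage and 21 at the later, had 0 calls. At an unadjusted p under 0.05 1 and 3 of them were higher, beside 6.26% and 3.13% of all genes. The median SE of these members was 0.0731 and 0.0640, against 0.0460 and 0.0463 for the enzymes. Given the low shares of all genes called, 0 calls does not set a list of this size apart. Because the members were chosen with earlier results of these data known, their shares beside those of all genes, here and below, are descriptions.

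The members' median log2 fold change was 0.05 and 0.08, and that of all genes was −0.00 at either stage. At E14.5 27 of 37 members were above 0, where 49.8% of all genes were (47.2% at a mean normalized count of 1000 or more). At E18.5 28 of 38 were above 0, where 48.8% of all genes were (49.8% at the higher level). The 17 glycolytic enzymes had medians of 0.11 and 0.09, with 15 and 14 of them above 0. The members outside the enzyme group had medians of 0.03 and 0.06, with 12 of 20 and 14 of 21 above 0.

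**Figure D1:**
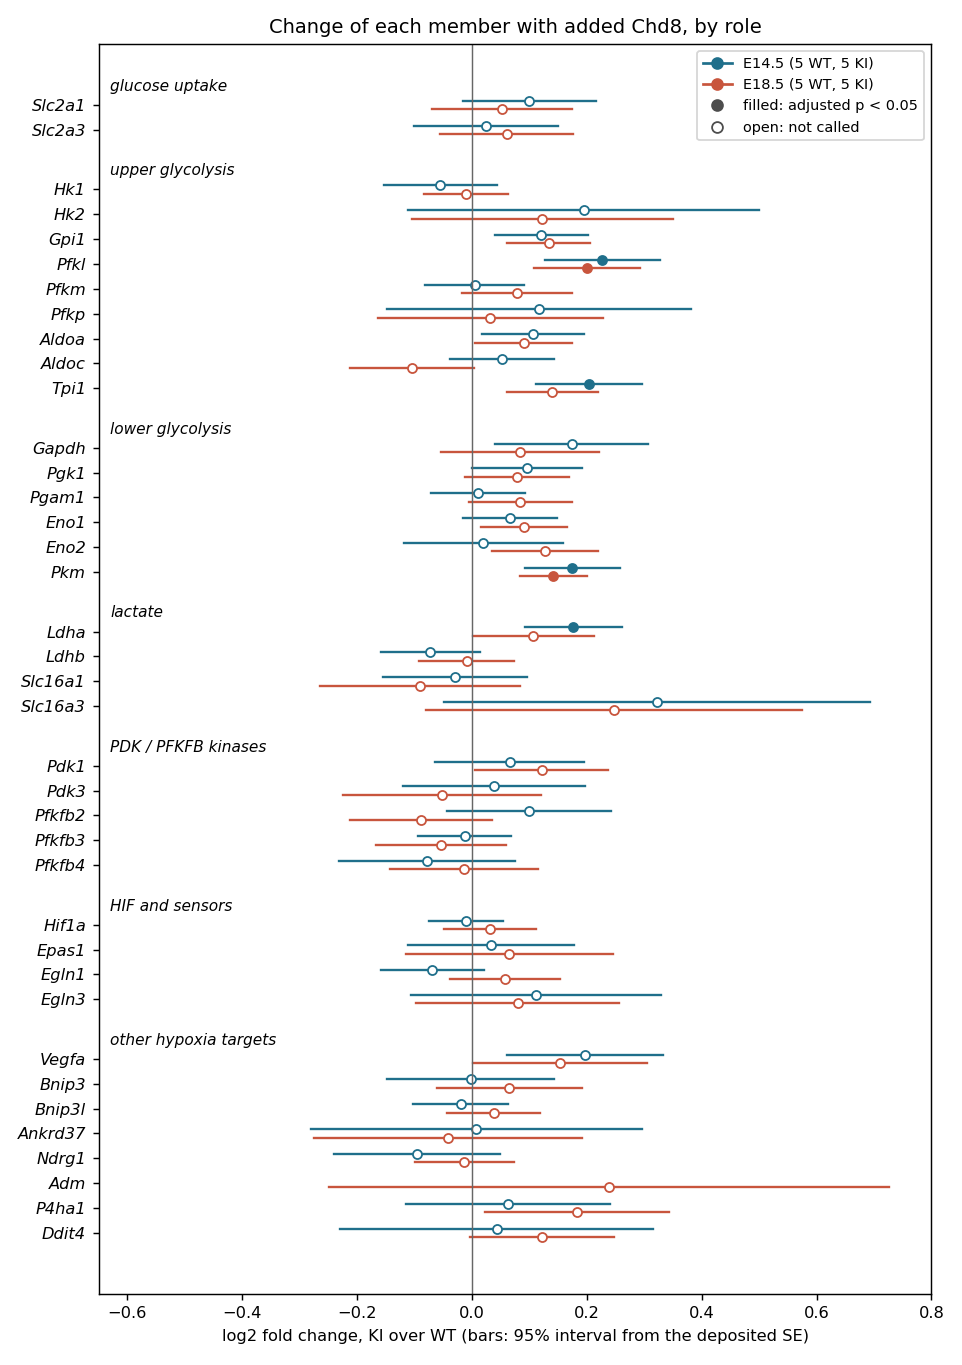
Log2 fold change of KI over WT for each member at E14.5 (blue) and E18.5 (red), grouped by role, with 95% intervals from the deposited SE; filled points have an adjusted p under 0.05. Pfkl and Pkm are filled at both stages and Tpi1 and Ldha at E14.5 alone, and no interval lies wholly below 0; Adm is drawn only at E18.5, where it was tested.

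These calls depended on how the p-values were treated. With an empirical null, which divides the Wald statistics by their own spread over all genes (1.22 at E14.5), all 4 calls of E14.5 ended (adjusted p = 0.0792 for Pfkl, 0.0886 for Tpi1, 0.125 for Pkm and 0.136 for Ldha). At E18.5 that spread was 0.949, and Pfkl and Pkm were still called. With the stricter Benjamini-Yekutieli adjustment Pfkl and Tpi1 were still called at E14.5, Pkm and Ldha were not (adjusted p = 0.0636 and 0.0745), and neither Pkm nor Pfkl was called at E18.5 (adjusted p = 0.0849 and 0.302). The share of all genes called at E14.5 went from 1.21% to 0.231% with the empirical null and to 0.417% with Benjamini-Yekutieli. For E18.5 it went from 0.0662% to 0.140% and to 0.0294%.

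Glucose enters cells through facilitative carriers, and neither carrier gene was called. For Slc2a1, which encodes GLUT1 of the blood-brain barrier, the authors' deposited tables give 0.10 (SE 0.059, 95% interval −0.02 to 0.22) and 0.05 (SE 0.062). For Slc2a3, which encodes the neuronal carrier GLUT3, the authors' deposited tables give 0.02 (SE 0.064) and 0.06 (SE 0.059). Its mean normalized count was 649 and 1515; the tables of the stages were normalized separately, so such levels are only set side by side.

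In upper glycolysis, from glucose to triose phosphate, 2 of 9 genes rose at E14.5 and 1 at E18.5. Of all genes 0.738% and 0.0441% rose by the same rule. Pfkl encodes the liver-type subunit of phosphofructokinase, the enzyme of the committed step. At E14.5 the authors' deposited table lists Pfkl with a mean normalized count of 2219, which its fold change divides into an implied 2045 in WT and 2394 in KI. That is a log2 fold change of 0.23 (SE 0.051, 95% interval 0.13 to 0.33, adjusted p = 0.00284), or 17.1%. At E18.5 the implied means were 2150 in WT and 2470 in KI, a rise of 14.9% (log2 fold change 0.20, SE 0.047, adjusted p = 0.0299, per the authors' deposited table). Whether single WT and KI libraries overlap cannot be read from these tables.

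Phosphofructokinase tetramers mix several subunit types, and the genes of the other subunits were not called. For Pfkm, the muscle-type subunit, the authors' deposited tables give 0.01 (SE 0.044, 95% interval −0.08 to 0.09) and 0.08 (SE 0.049). On the log2 scale Pfkl exceeded Pfkm by 0.22 and 0.12, which was not tested because both genes come from the same libraries. For Pfkp, the platelet-type subunit, the authors' deposited tables give 0.12 (SE 0.135) and 0.03 (SE 0.10), so that only a rise of 37.9% or more at E14.5, and of 34.0% or more at E18.5, could have been called.

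Tpi1 encodes triose phosphate isomerase, which interconverts the products of the aldolase step. At E14.5 it rose by 15.2%, from an implied 3826 normalized counts in WT to 4408 in KI (log2 fold change 0.20, SE 0.047, 95% interval 0.11 to 0.30, adjusted p = 0.00348, per the authors' deposited table). At E18.5 the authors' deposited table has 0.14 (SE 0.040, adjusted p = 0.184), with implied means of 3306 in WT and 3644 in KI, and the gene was not called.

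Gpi1, which converts glucose phosphate to fructose phosphate, was not called at either stage, with 0.12 (SE 0.041, adjusted p = 0.110) and 0.13 (SE 0.037, adjusted p = 0.169) in the authors' deposited tables. Aldoa, the widely expressed aldolase, had 0.11 (SE 0.045, adjusted p = 0.276) and 0.09 (SE 0.043, adjusted p = 0.805) in the authors' deposited tables. Aldoc, the aldolase of astroglia, had 0.05 (SE 0.046) and −0.10 (SE 0.055) there, so the signs differ between stages.

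The hexokinases, which trap glucose in the cell, were not called. For Hk1, the main form in brain, the authors' deposited tables give −0.05 (SE 0.050) and −0.01 (SE 0.037), and the upper ends of the 95% intervals are rises of 2.98% and 4.41%. For Hk2, a HIF target of dividing cells, the authors' deposited tables give 0.19 (SE 0.156) and 0.12 (SE 0.116), with intervals that span 0. The mean normalized count of Hk1 was 2222 and 5224, and that of Hk2 566 and 177.

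Lower glycolysis yields ATP and pyruvate. All 6 of its genes had a log2 fold change above 0 at both stages, with 1 called at each. Of all genes 27.9% were above 0 at both stages, and 0.738% and 0.0441% were called higher. The called gene of lower glycolysis was Pkm, pyruvate kinase, which forms pyruvate. At E14.5 Pkm rose by 12.9%, from an implied 21628 normalized counts in WT to 24417 in KI (log2 fold change 0.17, SE 0.042, 95% interval 0.09 to 0.26, adjusted p = 0.00630, per the authors' deposited table). At E18.5 it rose by 10.3%, from an implied 13617 to 15024 (log2 fold change 0.14, SE 0.030, 95% interval 0.08 to 0.20, adjusted p = 0.00841, per the authors' deposited table). A table by gene does not separate its splice forms.

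The other lower steps were not called. Gapdh, which makes NADH, had 0.17 (SE 0.068, adjusted p = 0.221) and 0.08 (SE 0.070) in the authors' deposited tables. The mouse genome holds processed copies of Gapdh that can share its reads, so this value is uncertain. The copy listed under its symbol, Gapdh-ps15, had a mean normalized count of 2.79 at E14.5. Copies under unrelated symbols were not searched for any member, the called genes included. Pgk1, phosphoglycerate kinase, had 0.10 (SE 0.049) and 0.08 (SE 0.046), and Pgam1, phosphoglycerate mutase, 0.01 (SE 0.042) and 0.08 (SE 0.046), in the authors' deposited tables. Eno1, the enolase of most cells, had 0.07 (SE 0.042) and 0.09 (SE 0.038) there. Its copy Eno1b, which can share its reads, was listed with mean normalized counts of 252 and 236, against 9105 and 8831 for Eno1. Eno2, the neuronal enolase, had 0.02 (SE 0.071) and 0.13 (SE 0.047, adjusted p = 0.593) in the authors' deposited tables, at mean normalized counts of 592 and 1778.

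Of the genes that make and carry lactate, 1 of 4 rose at E14.5 and 0 at E18.5, beside 0.738% and 0.0441% of all genes. Ldha encodes the subunit of lactate dehydrogenase that favours lactate formation. At E14.5 it rose by 13.0%, from an implied 5194 normalized counts in WT to 5869 in KI (log2 fold change 0.18, SE 0.043, 95% interval 0.09 to 0.26, adjusted p = 0.00740, per the authors' deposited table). At E18.5 the authors' deposited table has 0.11 (SE 0.054, adjusted p = 0.827). Ldhb, the subunit that favours lactate use, had −0.07 (SE 0.044) and −0.01 (SE 0.042) there. Ldha thus exceeded Ldhb by 0.25 and 0.12 on the log2 scale, again without a test.

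Slc16a1, the lactate and pyruvate carrier MCT1, had −0.03 (SE 0.064) and −0.09 (SE 0.089) in the authors' deposited tables. Slc16a3, the exporter MCT4 and a HIF target, had the highest log2 fold change of the tested members at either stage, 0.32 (SE 0.189) and 0.25 (SE 0.167) in the authors' deposited tables. It was not called, at mean normalized counts of 105 and 92.8.

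Promoter sequences from RefSeq (GRCm38.p6) were matched to 34 of the 38 members, Slc2a3, Bnip3l, Ndrg1 and Epas1 being the others. The sequences below are the 250 bases before the annotated start, 5′ to 3′ on the strand of the gene. They are shown for the 4 genes that rose, for Ldhb as the partner of Ldha, and for Bnip3 as a HIF target that was not called. Capitals mark ACGTG on either strand (CACGT when read on the other), the core of the hypoxia response element; CACGTG holds it on both strands. For genes with several starts the one with most matches is shown.
Pfkl (chr10:78009808-78010057, minus strand): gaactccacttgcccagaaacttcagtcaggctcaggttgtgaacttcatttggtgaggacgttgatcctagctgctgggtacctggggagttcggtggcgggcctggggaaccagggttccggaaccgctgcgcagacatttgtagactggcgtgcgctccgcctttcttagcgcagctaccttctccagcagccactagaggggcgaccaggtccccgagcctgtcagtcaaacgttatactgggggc
Tpi1 (chr6:124814159-124814408, minus strand): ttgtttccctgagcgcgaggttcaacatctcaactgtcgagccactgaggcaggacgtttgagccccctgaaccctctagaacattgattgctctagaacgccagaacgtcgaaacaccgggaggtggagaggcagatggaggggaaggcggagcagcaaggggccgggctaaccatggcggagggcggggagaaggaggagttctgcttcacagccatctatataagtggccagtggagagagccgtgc
Pkm (chr9:59656977-59657226, plus strand): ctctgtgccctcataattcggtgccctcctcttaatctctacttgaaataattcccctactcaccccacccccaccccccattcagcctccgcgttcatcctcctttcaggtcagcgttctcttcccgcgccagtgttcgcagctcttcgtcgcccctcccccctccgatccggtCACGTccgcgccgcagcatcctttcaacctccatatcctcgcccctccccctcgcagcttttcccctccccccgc
Ldha (chr7:46845554-46845803, plus strand): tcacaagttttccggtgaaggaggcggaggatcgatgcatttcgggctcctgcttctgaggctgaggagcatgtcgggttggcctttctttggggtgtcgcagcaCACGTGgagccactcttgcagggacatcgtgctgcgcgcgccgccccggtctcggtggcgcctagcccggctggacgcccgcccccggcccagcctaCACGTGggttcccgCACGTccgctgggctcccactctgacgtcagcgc
Ldhb (chr6:142507958-142508207, minus strand): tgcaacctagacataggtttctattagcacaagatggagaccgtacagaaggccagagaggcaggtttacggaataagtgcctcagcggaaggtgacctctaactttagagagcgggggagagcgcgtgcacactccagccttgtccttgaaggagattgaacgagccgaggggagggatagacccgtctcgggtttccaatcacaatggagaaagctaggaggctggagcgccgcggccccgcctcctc
Bnip3 (chr7:138909507-138909756, minus strand): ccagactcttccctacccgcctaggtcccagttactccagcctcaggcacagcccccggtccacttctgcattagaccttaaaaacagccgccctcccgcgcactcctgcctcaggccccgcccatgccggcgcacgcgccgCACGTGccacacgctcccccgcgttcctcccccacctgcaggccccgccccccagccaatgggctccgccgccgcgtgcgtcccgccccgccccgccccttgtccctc
The Ldha sequence held 5 matches to ACGTG, that of Bnip3 2 and that of Pkm 1, while those of Pfkl, Tpi1 and Ldhb held 0. The other core searched, GCGTG, is not marked in capitals. It was matched 3 times for Bnip3, 1 time each for Pfkl and Ldhb, and 0 times for Tpi1, Pkm and Ldha. Counting all starts, 21 of 34 members (61.8%) held ACGTG, against 25.3% of the genes tested at E14.5 that have such a sequence. By sequence rather than gene the counts were 25 of 50 for members, against 21.5% of the sequences of tested genes and 22.2% of those with a mean normalized count of 1000 or more. The core GCGTG, searched on both strands, was found in 70.6% of members and 50.8% of tested genes. HIF targets were chosen as members, so these shares are a description. ACGTG was found in 2 of the 4 called members and 19 of the 30 others.

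The kinases that steer flux were not called, and their medians were 0.04 and −0.05. Pdk1 and Pdk3 encode kinases that shut off pyruvate dehydrogenase. In the authors' deposited tables Pdk1, a HIF target, had 0.07 (SE 0.066) and 0.12 (SE 0.059, adjusted p = 0.808), and Pdk3 had 0.04 (SE 0.081) and −0.05 (SE 0.088). The Pfkfb enzymes set the level of fructose bisphosphate that activates phosphofructokinase. In the authors' deposited tables Pfkfb2 had 0.10 (SE 0.073) and −0.09 (SE 0.063), Pfkfb3 −0.01 (SE 0.041) and −0.05 (SE 0.058), and Pfkfb4 −0.08 (SE 0.078) and −0.01 (SE 0.066).

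The HIF genes and their sensors were not called, with 0 of 4 at an unadjusted p under 0.05 at either stage. Of all genes 6.26% and 3.13% were higher by that p, and 5.28% and 2.82% lower. Hif1a encodes the oxygen-regulated subunit, which is controlled mostly through protein stability. In the authors' deposited tables it had −0.01 (SE 0.033) and 0.03 (SE 0.041), and the 95% interval at E14.5 ran from −5.01% to 3.80%. Epas1, the HIF-2α gene, had 0.03 (SE 0.074) and 0.06 (SE 0.092) there. Egln1, the main HIF prolyl hydroxylase, had −0.07 (SE 0.046) and 0.06 (SE 0.049), and Egln3, a hydroxylase gene that HIF itself raises, 0.11 (SE 0.111) and 0.08 (SE 0.090), in the authors' deposited tables.

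Among hypoxia targets outside glycolysis 0 of 7 were called at E14.5 and 0 of 8 at E18.5, beside 1.21% and 0.0662% of all genes. At an unadjusted p under 0.05 1 and 2 of these targets were higher, beside 6.26% and 3.13% of all genes. The medians of the targets were 0.01 and 0.09. Vegfa, the vessel growth factor, had 0.20 (SE 0.069, 95% interval 0.06 to 0.33, adjusted p = 0.143) and 0.15 (SE 0.077, adjusted p = 0.827) in the authors' deposited tables. P4ha1, a collagen prolyl hydroxylase, had 0.06 (SE 0.091) and 0.18 (SE 0.082, adjusted p = 0.773) there. Ddit4, an inhibitor of mTORC1 that many stresses raise, had 0.04 (SE 0.139) and 0.12 (SE 0.064) there.

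The mitophagy receptor genes were also not called. In the authors' deposited tables Bnip3 had −0.0020 (SE 0.074) and 0.07 (SE 0.064), and Bnip3l had −0.02 (SE 0.042) and 0.04 (SE 0.041). Bnip3l can share reads with the listed copy Bnip3l-ps, whose mean normalized count was 150 at E14.5 against 3235 for Bnip3l. Ankrd37 had 0.01 (SE 0.147) and −0.04 (SE 0.119), and Ndrg1, which many stresses induce, −0.10 (SE 0.074) and −0.01 (SE 0.044), in the authors' deposited tables. For Adm at E18.5 the authors' deposited table lists 0.24 (SE 0.249).

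Set among all genes, more members were higher than lower at an unadjusted p under 0.05. That is a description, since the members were chosen with earlier results of these data known. At E14.5 8 of 37 were higher and 0 lower, beside 6.26% and 5.28% of all genes. At E18.5 11 of 38 were higher and 0 lower, beside 3.13% and 2.82%. Among genes with a mean normalized count of 1000 or more, 6.80% and 3.80% were higher by that rule at the earlier and the later stage. Ranked by Wald statistic from the highest, Pfkl, Tpi1, Pkm and Ldha held ranks 32, 33, 42 and 45 of 13417 genes at E14.5. At E18.5 Pkm, Pfkl, Gpi1 and Tpi1 held ranks 4, 6, 17 and 19 of 13601.

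**Figure D2:**
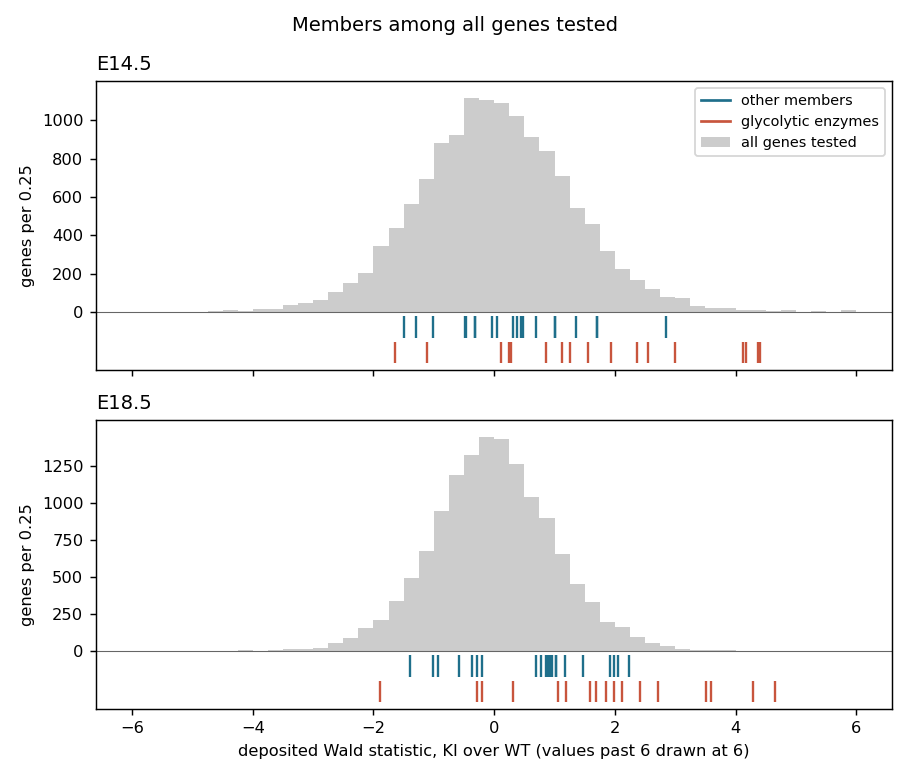
Histogram of the deposited Wald statistic of KI over WT for all genes tested (grey), with 1 tick below it for each glycolytic enzyme (red, lower row) and each other member (blue, upper row). The red ticks reach past 4 at both stages, with 2 of 17 below 0 at E14.5 and 3 of 17 at E18.5.

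The stages share no library. Across the 37 members tested at both, the log2 fold changes had Pearson's r = 0.65 and Spearman's rho = 0.68, and r = 0.59 over the 33 members never called; across all 13106 genes r was 0.21, and across the 4380 with a mean normalized count of 1000 or more at both stages it was 0.35. These are descriptions across genes, which share the libraries of each stage and are not independent replicates. The members were also chosen with earlier results of these data known. Of the members 23 of 37 (62.2%) were above 0 at both stages, against 27.9% of all genes. At an unadjusted p under 0.05 7 were higher at both (Gpi1, Pfkl, Aldoa, Tpi1, Pkm, Ldha and Vegfa), beside 0.755% of all genes. By the adjusted p 4 genes rose at both stages, 0.0305% of those tested: Chd8, Pfkl, Pkm and Marchf8, a ubiquitin ligase gene named after its values were seen.

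**Figure D3:**
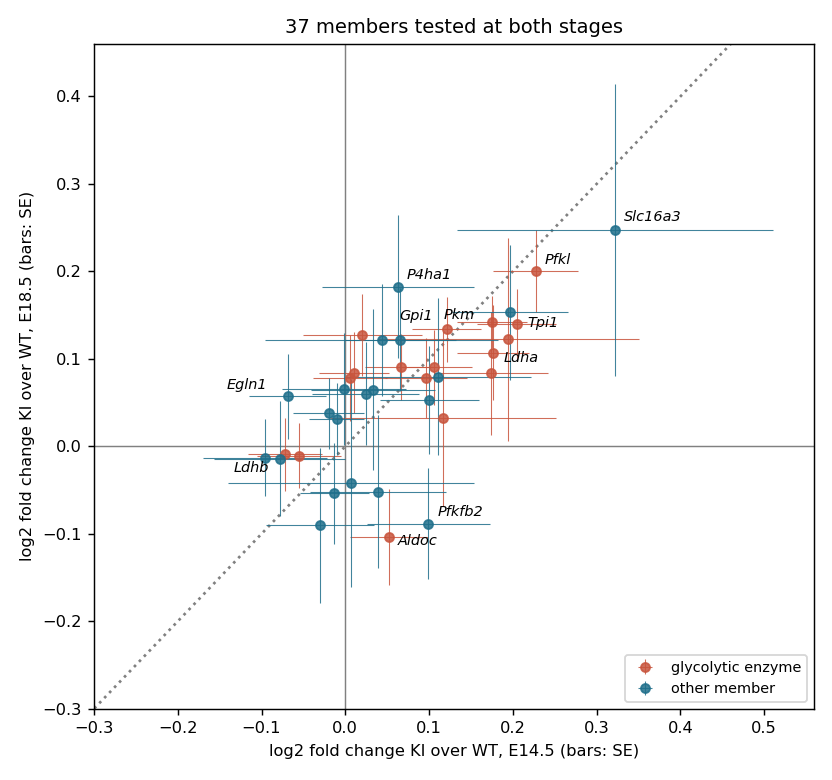
Log2 fold change of KI over WT at E14.5 (x axis) and at E18.5 (y axis) for the 37 members tested at both, with SE bars and a dotted line of equality; red points are glycolytic enzymes. Pfkl, Tpi1, Pkm, Ldha and Gpi1 lie above 0 on both axes, and Aldoc and Pfkfb2 lie above 0 on the x axis only.

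Whether the response differed between stages was tested gene by gene, and 0 of 37 members and 0 of 13106 genes (0%) passed by the adjusted p of a z test. At an unadjusted p under 0.05 1 member passed, beside 4.52% of all genes. It was Aldoc, whose E18.5 log2 fold change minus that of E14.5 was −0.16 (SE 0.072, 95% interval −0.30 to −0.02, adjusted p = 0.999). The same difference was −0.06 for Tpi1 (95% interval −0.18 to 0.06) and −0.07 for Ldha (95% interval −0.20 to 0.07), the genes called at the earlier stage alone. It was −0.03 for Pfkl (95% interval −0.16 to 0.11) and −0.03 for Pkm (95% interval −0.13 to 0.07).

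The SE set which changes could be called. A Wald statistic of 3.43 at E14.5 and of 4.21 at E18.5 separated called genes, which puts the smallest rise that could be called at a median of 16.4% and 18.6% over the members. It was 20% or less for 28 of 37 and 22 of 38 members, and lowest for Hif1a (8.07%) at the earlier stage and for Pkm (9.28%) at the later. The SE was above the 95th percentile of genes of like mean normalized count for 9 members at E14.5 (Hk2, Pfkp, Gapdh, Slc16a3, Pfkfb2, Vegfa, Ndrg1, P4ha1 and Ddit4) and for 2 at E18.5 (Pfkp and Vegfa). At E14.5 the SE of Ddit4 was 3.11 times the median of such genes, that of Pfkp 2.39 times and that of Hk2 2.26 times. At E18.5 it was 2.41 times for Pfkp, 1.66 times for Vegfa, 1.29 times for Ddit4 and 0.957 times for Hk2.

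**Figure D4:**
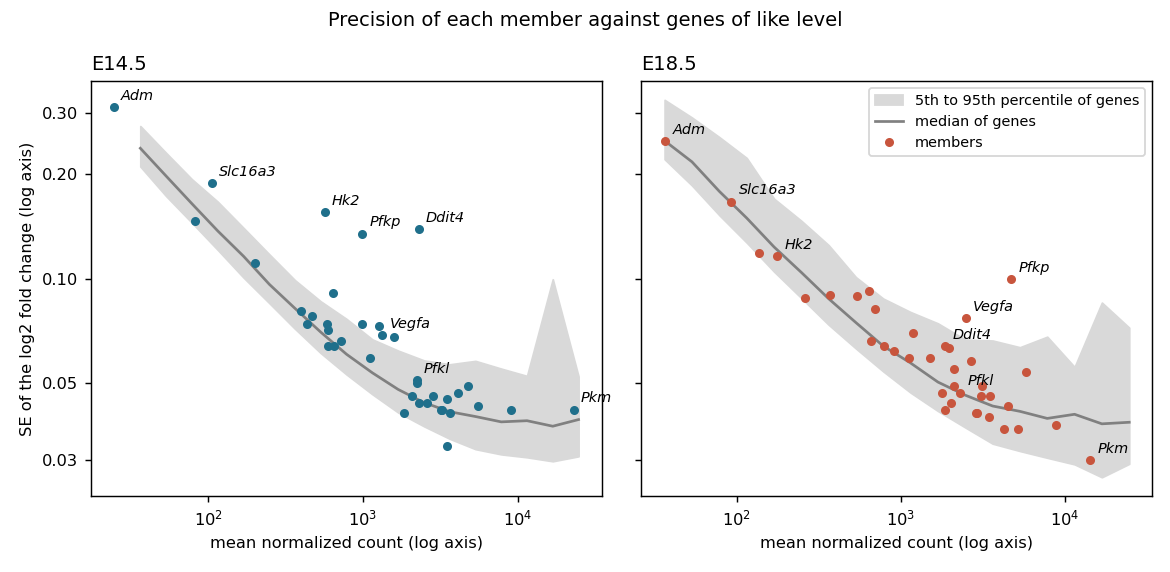
SE of the log2 fold change against mean normalized count, both on log axes, for each member (points) at E14.5 and E18.5; the line is the median of tested genes at that level and the band their 5th to 95th percentiles. Of the members above the band, Ddit4, Pfkp and Hk2 lie farthest from it at E14.5 and Pfkp at E18.5, and Pkm lies inside it at both.

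The members lie on 17 chromosomes, and the 4 called genes on 4 of them: Pfkl on 10, Tpi1 on 6, Pkm on 9 and Ldha on 7. Tpi1 (chr6:124810586-124814158 in GRCm38.p6) lies near Eno2 (chr6:124760053-124769673) and Gapdh (chr6:125161852-125166467). From Slc2a3 to Gapdh on that chromosome, 31 genes were tested at each stage, the members Slc2a3, Eno2, Tpi1 and Gapdh among them. At E14.5 Tpi1 was the 1 called, and the median log2 fold change of the 31 was 0.02, with 25 above 0, where 49.8% of all genes were. At E18.5 0 were called, and the median was −0.01, with 14 above 0, where 48.8% of all genes were. Without the 6 members on chromosome 6, an alternative chosen after the data were seen, the members' median was 0.052 and 0.072.

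Related pathways outside the 38 genes had 1 called gene in all, Atf4. Among all genes the share called was 1.21% for the earlier stage and 0.0662% for the later. With shares that low, so few calls do not set these lists apart from other genes. Of 24 other isozymes and transporters of sugar and lactate, 17 and 16 were tested, and 0 were called. Of these 0 reached an unadjusted p under 0.05, and the medians were −0.02 and 0.01. The median SE of this list was 0.142 and 0.126, against 0.0460 and 0.0463 for the glycolytic enzymes. At that SE, rises as small as those of the called enzymes could not have been called. Of 30 further HIF targets 28 were tested at each stage and 0 were called, with medians of 0.05 and 0.04. By the unadjusted p 1 was higher and 1 lower at E14.5, and 1 was higher at E18.5. Car12, a membrane-bound carbonic anhydrase, had 0.35 (SE 0.231) and 0.04 (SE 0.604) in the authors' deposited tables.

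Of 14 regulators of the HIF pathway 0 were called, with medians of 0.01 and −0.02, and 1 and 0 were higher by the unadjusted p. Vhl, which recognises hydroxylated HIF, had −0.09 (SE 0.045) and −0.01 (SE 0.043), and Arnt, the partner of the HIF subunits, −0.09 (SE 0.048) and −0.02 (SE 0.058), in the authors' deposited tables. Of 12 transcription regulators of glycolysis 12 and 11 were tested and 0 called, with medians of 0.01 and −0.04; by the unadjusted p 2 were higher at E14.5, and 1 was higher and 1 lower at E18.5. Myc had −0.03 (SE 0.074) and −0.07 (SE 0.052), and Mycn, its relative in neural progenitors, 0.05 (SE 0.043) and −0.03 (SE 0.057), in the authors' deposited tables.

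Pentose phosphate and glycogen genes had 0 calls among 15 and 16 tested, 0 by the unadjusted p, and medians of 0.02 and −0.00. G6pdx, the entry enzyme of the pentose phosphate pathway, had −0.06 (SE 0.047) and −0.08 (SE 0.063) in the authors' deposited tables. Genes of pyruvate oxidation and the citric acid cycle had 0 calls among 27 tested at each stage and medians of 0.00 and 0.01; by the unadjusted p 2 were higher and 3 lower at E14.5, and 0 at E18.5. Pdha1, of the pyruvate dehydrogenase complex, had 0.00 (SE 0.046) and 0.03 (SE 0.047) in the authors' deposited tables. In the amino acid stress list 1 of 11 genes was called at E14.5, 3 were higher and 0 lower by the unadjusted p, and 9 were above 0, with a median of 0.10 beside 0.11 for the glycolytic enzymes. At E18.5 0 of its 10 tested genes were called or passed by the unadjusted p, and the median was 0.02. The called gene was Atf4, the regulator of that response, with 0.16 (SE 0.046, adjusted p = 0.0383) and −0.02 (SE 0.048) in the authors' deposited tables.

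**Figure D5:**
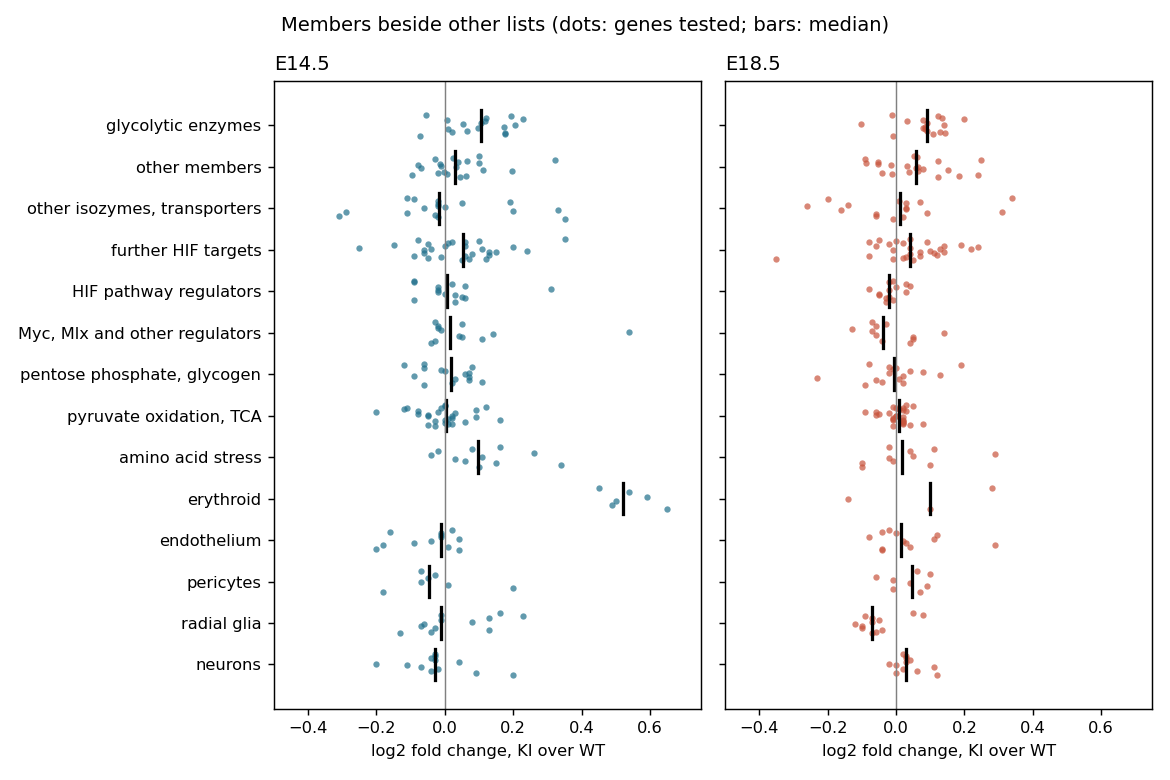
Log2 fold change of KI over WT for each tested gene (dots) of the members, of related pathways and of cell type markers at E14.5 and E18.5; black bars are list medians. Glycolytic enzymes have medians of 0.11 and 0.09 and citric acid cycle genes 0.00 and 0.01, and the erythroid markers stand at 0.52 at E14.5.

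In bulk tissue fewer cells of a type and less RNA per cell cannot be told apart, and markers of some other cells also moved with genotype. Erythroid markers were above 0 in 6 of 6 tested at E14.5 (median 0.52, 2 called) and in 2 of 3 at E18.5 (median 0.10, 0 called), with summed mean normalized counts over all listed of 3079 and 1056. The called ones were the embryonic globin genes, Hbb-y with 0.50 (SE 0.068, adjusted p = 1.64e-09) and Hba-x with 0.59 (SE 0.149, adjusted p = 0.0118) at E14.5, per the authors' deposited table. Meningeal markers were above 0 in 5 of 5 tested at E14.5 (median 0.41, 0 called) and in 1 of 2 at E18.5 (median 0.22, 0 called). Over all meningeal markers listed, tested or not, the summed mean normalized count was 407 and 1714. At E18.5 9 of these 11 had no p in the authors' deposited table, with SEs from 0.85 to 2.89, so they were not tested at that stage. Endothelial markers, from cells rich in Slc2a1, were above 0 in 4 of 12 and 7 of 12 (medians −0.01 and 0.01, 0 called), with sums of 3234 and 5782.

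Pericyte markers had medians of −0.05 and 0.05, with 2 of 7 and 5 of 8 above 0. Notch3 of that list was called higher at E14.5 (0.20, SE 0.051, adjusted p = 0.0120, per the authors' deposited table). Radial glia markers had medians of −0.01 and −0.07, with 5 of 12 and 2 of 12 above 0. By the unadjusted p 3 of them were higher at E14.5 and 1 was lower at E18.5. Ttyh1 was called higher at E14.5 (0.13, SE 0.037, adjusted p = 0.0491) and had −0.04 (SE 0.045) at E18.5, per the authors' deposited tables. Neuronal markers had medians of −0.03 and 0.03, with 3 of 12 and 10 of 12 above 0. By the unadjusted p 1 was higher and 2 were lower at E14.5, and 2 were higher at E18.5. Neurod6 was called lower at E14.5 (−0.20, SE 0.046, adjusted p = 0.00438, per the authors' deposited table). The forebrain list had medians of 0.03 and −0.02, with 7 of 12 and 5 of 12 above 0. By the unadjusted p 3 of its genes were higher and 2 lower at E14.5, and 0 passed at E18.5. Its called genes were Neurod6, also on this list and lower, and Dlx1, a regulator of inhibitory neurons. Dlx1 was called higher at E14.5 (0.17, SE 0.047, adjusted p = 0.0369, per the authors' deposited table). Astrocyte markers had medians of 0.05 and −0.00 (3 of 5 and 3 of 7 above 0) and microglial markers of 0.03 and 0.10 (6 of 8 and 7 of 8), with 0 called. Of 7 choroid plexus markers 1 was tested at each stage and 0 were called; Ttr, the defining one, was listed at a mean normalized count of 5.76 and 2718, without an adjusted p at either stage, and 5 of the 7 had no p at E18.5, with SEs from 1.15 to 1.88. The part of these cells in the change of the glycolytic genes was not tested.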

How the data were processed

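Forebrain RNA was measured in 5 WT and 5 KI libraries at each of E14.5 and E18.5. The submitters' processing notes name, for the authors' work on the whole series, DESeq2 1.26.0, featureCounts 2.0.0, HISAT2 2.1.0, Trimmomatic 0.39 and build mm10, without their order. The authors deposited 1 comparison table per stage. Per the file headers, its deposited columns are a mean normalized count (a signal averaged over libraries), a log2 fold change with SE, a Wald statistic (a score), and a raw and an adjusted p-value. Recomputing Benjamini-Hochberg over 13417 genes (E14.5) and 13601 genes (E18.5) gave the deposited adjusted p. With no values per library, depth per library is unknown here. The labels do not say that libraries came from separate litters, so p-values measure only the spread between these libraries.

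Gene symbols, positions and promoters came from RefSeq tables of GRCm38.p6, matched by gene ID (95.8% of IDs, then 97.5%). Intervals are 95% normal intervals from the deposited SE; implied genotype means split the mean normalized count by the fold change over equal groups. Stage differences were tested with a z test on log2 fold changes and SEs, adjusted over 13106 genes (pandas 2.3.3, scipy 1.17.1), after a test on simulated data. The simulation drew independent normal values with the deposited SEs, so it checked the code and not whether those SEs hold. All members may be named; other lists contribute their called genes, at most 4, and their first 2 genes as written. Genes named outside that rule are Gbx2 and Marchf8, after their values were seen, and the copies Eno1b, Bnip3l-ps and Gapdh-ps15. The members and lists were chosen with earlier results of these data known. Alternatives were other adjustments, an empirical null, recentring, level minimums and left-out members. The chromatin immunoprecipitation and ATAC-seq libraries were not analysed here. Values of some listed genes are not reported here.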

Additional observations from a re-analysis of the deposited data

How the results depend on the processing

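The members called at E14.5, 4 as deposited, became 2 with the Benjamini-Yekutieli adjustment and 0 with the empirical null, and were 4 under the other 5 alternatives. The members called at E18.5, 2 as deposited, became 0 with Benjamini-Yekutieli and were 2 under the other 6. Over all genes the share called also moved with these settings. With Benjamini-Yekutieli it was 0.417% at E14.5 and 0.0294% at E18.5, and with the empirical null 0.231% and 0.140%. As deposited it was 1.21% and 0.0662%. The members' median log2 fold change ranged from 0.039 to 0.057 at E14.5 and from 0.065 to 0.080 at E18.5, lowest without the members called at either stage. The stage difference gave 0 members under its 3 alternatives. Recentring on the median of genes at a mean normalized count of 1000 or more moved Bnip3 at E14.5 across 0, from −0.0020 to 0.00 (adjusted p = 0.995). No paired analysis was possible because the tables hold no values per library; leaving out each replicate and the replicate block were therefore not run. Depth per library is unknown here, and the SE alone limits what could be called.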
